A study of Homo sapiens with 66 samples.

Results

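The insulin and insulin-like growth factor (IGF) receptor axis was described here by 9 genes picked by symbol, 9 of the 57992 gene identifiers counted in every library. They are the ligand gene IGF1, the receptor genes IGF1R, INSR and IGF2R, the docking protein genes IRS1 and IRS2, and the binding protein genes IGFBP2, IGFBP4 and IGFBP7. RNA was sequenced from 11 lines of acute myeloid leukemia (AML), THP-1, OCI-AML3, OCI-AML2, NOMO-1, NB-4, MV-4-11, MONO-MAC-6, MOLM-13, KASUMI-1, HL-60 and F-36P, names which the sample labels write without hyphens. Each was kept for 24 hours without etoposide, called untreated here, or in etoposide, a topoisomerase II poison, at the IC50 of that cell line. Whether the untreated cells got the vehicle was not given in the sources used here. There were 3 biological replicates for each of the 22 groups, which gives 66 libraries. The comparisons ask how much of the axis each leukemia expresses and what etoposide does to it. Each leukemia is 1 established line, and the cells of a library were pooled from several wells. The etoposide concentration differed between lines and was by far the highest in F-36P. Insulin itself was part of the culture of MONO-MAC-6, for whose medium the study lists a human insulin supplement. It also lists more serum for F-36P, KASUMI-1, OCI-AML2 and OCI-AML3 than for the other lines. F-36P got granulocyte-macrophage colony stimulating factor, and the base medium was not the same for all lines. Differences between lines therefore cannot be told apart from those of culture, nor differences in their response from those of concentration.

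Insulin and the IGFs act through related receptor tyrosine kinases, INSR and IGF1R, which also form hybrids with each other. An active receptor phosphorylates IRS1 and IRS2, the docked phosphoinositide 3-kinase then switches on AKT, which favours growth and survival in many cells. IGF2R has no kinase and carries IGF2 and mannose 6-phosphate tagged enzymes to lysosomes, whereas the secreted binding proteins hold IGFs outside the cell, IGFBP7 with low affinity.

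The genes lie on 8 chromosomes and differ in length and promoter. IGF1R covers 316.0 kb of chromosome 15 (98648539 to 98964530, plus strand, GRCh38), INSR covers 182.2 kb of chromosome 19 (7112255 to 7294414, minus strand) and IGF1 covers 85.9 kb of chromosome 12 (102395874 to 102481744, minus strand). The stretches of 250 bases before the RefSeq start sites of these 3 genes (GRCh38.p14) are shown because the 2 kinase receptors had the widest ranges of the receptors and IGF1 was close to 0 in most lines. GC boxes (GGGCGG, or CCGCCC for the other strand) are in capitals, and each sequence reads 5′ to 3′ on the strand of its gene, at chr15:98648289-98648538 (plus), chr19:7294415-7294664 (minus) and chr12:102481748-102481997 (minus, the outer of 2 start sites).
IGF1R: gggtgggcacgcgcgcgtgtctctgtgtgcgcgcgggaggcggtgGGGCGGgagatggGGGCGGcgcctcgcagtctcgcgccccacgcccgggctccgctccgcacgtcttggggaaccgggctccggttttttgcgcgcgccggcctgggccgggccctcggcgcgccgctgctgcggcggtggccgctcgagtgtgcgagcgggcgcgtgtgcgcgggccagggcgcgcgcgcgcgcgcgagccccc
INSR: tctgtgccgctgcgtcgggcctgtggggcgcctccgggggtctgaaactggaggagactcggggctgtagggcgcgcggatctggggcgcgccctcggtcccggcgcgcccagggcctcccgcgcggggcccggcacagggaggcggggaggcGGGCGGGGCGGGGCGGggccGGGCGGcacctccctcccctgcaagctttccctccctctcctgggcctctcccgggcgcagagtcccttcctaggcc
IGF1: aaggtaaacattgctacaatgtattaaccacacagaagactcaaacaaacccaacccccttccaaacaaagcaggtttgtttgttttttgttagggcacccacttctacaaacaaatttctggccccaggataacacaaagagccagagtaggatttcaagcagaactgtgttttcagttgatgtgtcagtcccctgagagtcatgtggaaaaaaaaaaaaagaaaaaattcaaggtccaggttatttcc

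The IGF1R stretch held 2 GC boxes and was 81.2% G or C, and the INSR stretch held 4, of which 3 overlap, and was 78.4% G or C. IGF1 had none and was 39.6% G or C. Of all 35116 promoter windows of this length, 42.64% held a GC box. The IRS1, IRS2 and IGF2R windows held 4, 5 and 6, the IGFBP4 window 1, and 2 of the 3 IGFBP2 windows 1 each. A match of these letters is a description of the sequence only.

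Reads on genes numbered 17997404 to 24101670 per library (median 20241014), so 3 reads over the 3 libraries of a group, the most that a count of 0 allows, equal 0.0426 to 0.0528 CPM, the read count scaled to library size. PTPRC, CD33 and SPI1, which define leukocytes and myeloid cells, were at 1 CPM or more in all 11 untreated lines, as was LYZ, and the myeloid gene MPO in all but F-36P (0.977 CPM). Of the erythroid genes, HBG1 and HBG2 reached 1 CPM only in F-36P, KLF1 in 3 lines and the transferrin receptor gene TFRC in all 11. Libraries of 1 group always differed by more than read sampling. For OCI-AML2 the treated libraries were discarded by the study at quality control and are given apart. Counting appears to have kept the strands apart, since 470 of the 716 genes that lie wholly within another gene's exon on the other strand got reads. The exons are those of a later gene annotation than the one used for counting, so this does not settle the point. HL-60 had 981 untreated and 843 etoposide reads on HELLPAR, a noncoding RNA that lies opposite 6693 exon bases of IGF1, beside 0 on IGF1. The pseudogene CHP1P2 shares 571 exon bases with IGF2R on the same strand, where reads cannot be split with certainty. In such bulk RNA, fewer cells that express a gene and less RNA per cell cannot be told apart.

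In untreated cells the levels of the axis differed widely between the leukemias, least of all for IGF2R. All 9 members differed between the 11 lines (edgeR's quasi-likelihood F test, Benjamini-Hochberg adjusted p at most 2.20e-12), as did 99.4% of all 18130 genes tested. When the lines were ordered by each member's level, 56 of 90 pairs of neighbours differed at an adjusted p under 0.05. Over all 55 pairs of lines and all genes the share was 66.8%, though neighbours are by construction the closest pairs. Neighbours with an adjusted p of 0.05 or more are described as not told apart, which does not show that they are equal. Levels in the next paragraphs are CPM normalized over the 33 untreated libraries, as mean ± SD of 3 libraries.

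IGF1R was highest in NOMO-1 (172 ± 1.02 CPM), with little spread between its libraries. A group of 4 lines followed at close levels: KASUMI-1 (111 ± 3.34 CPM), HL-60 (104 ± 2.21 CPM), F-36P (97.2 ± 10.7 CPM) and NB-4 (91.96 ± 4.83 CPM). These 4 lines could not be told apart as neighbours (adjusted p 0.330 to 0.418). The level was lower in steps from OCI-AML2 (40.2 ± 2.42 CPM) through MV-4-11 (19.98 ± 2.04 CPM), MOLM-13 (11.5 ± 1.03 CPM) and OCI-AML3 (5.43 ± 0.443 CPM) to THP-1 (2.99 ± 0.743 CPM) and MONO-MAC-6 (1.52 ± 0.1700 CPM). Each of these steps was past the threshold (largest adjusted p = 7.40e-06), and NOMO-1 stood 113-fold above MONO-MAC-6.

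INSR, the insulin receptor, had another order. MONO-MAC-6, lowest for IGF1R, was highest at 156 ± 5.15 CPM, followed by MOLM-13 (108 ± 2.56 CPM). The next 5 lines lay close together, OCI-AML3 (83.5 ± 5.44 CPM), HL-60 (81.9 ± 4.74 CPM), THP-1 (76.6 ± 4.28 CPM), NOMO-1 (75.2 ± 2.39 CPM) and MV-4-11 (74.02 ± 0.833 CPM), and no neighbours among them were told apart (adjusted p 0.237 to 0.824). OCI-AML2 (62.5 ± 3.78 CPM) and NB-4 (61.1 ± 4.32 CPM) were not told apart either (adjusted p = 0.736), and KASUMI-1 (35.5 ± 0.9204 CPM) was lower. F-36P was the exception among the lines, with 1.62, 1.03 and 1.07 CPM in its libraries, which is 126-fold under MONO-MAC-6 and 4.84 log2 units under KASUMI-1, the next line.

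IGF2R was the most even member. MONO-MAC-6 (638 ± 13.4 CPM) and THP-1 (452 ± 36.5 CPM) led, and KASUMI-1 (170.0 ± 6.73 CPM) was lowest, a 3.76-fold range. Between them came MOLM-13 (381 ± 7.57 CPM), OCI-AML2 (357 ± 19.1 CPM), OCI-AML3 (336 ± 16.2 CPM) and F-36P (312 ± 31.3 CPM), whose neighbours were not told apart (adjusted p 0.170 to 0.297). The others were NB-4 (264 ± 10.6 CPM), HL-60 (256 ± 14.4 CPM), MV-4-11 (225 ± 8.21 CPM) and NOMO-1 (212 ± 13.6 CPM), in which NB-4 was not told apart from HL-60, nor MV-4-11 from NOMO-1.

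Per length, IGF1R and INSR took very different shares. The length is that of all annotated exons of a gene merged, 13.94 kb for IGF1R, 10.83 kb for INSR and 22.61 kb for IGF2R. It can exceed the length of the transcripts expressed, so the order of receptors at close levels depends on it. On the scale of CPM per kb of exon, normalized within a line, IGF1R made up 98.4% of the 2 receptors' summed level in untreated F-36P, 70.9% in KASUMI-1, 63.95% in NOMO-1 and 53.9% in NB-4, above INSR in all 3 libraries of each. HL-60 was balanced at 49.6%, with library ratios of IGF1R to INSR from 0.952 to 1.05. INSR was above IGF1R in every library of the other 6 lines, where the IGF1R share was 33.3% in OCI-AML2, 17.3% in MV-4-11, 7.65% in MOLM-13, 4.82% in OCI-AML3, 2.94% in THP-1 and 0.754% in MONO-MAC-6. IGF2R had more CPM per kb than either in 9 lines, the exceptions being KASUMI-1 (7.51 against 7.96 for IGF1R) and NOMO-1 (10.5 against 13.8).

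The ligand gene IGF1 was detected above a few reads in 2 untreated lines, MOLM-13 (1.82 ± 0.552 CPM, 107 reads) and MV-4-11 (0.519 ± 0.108 CPM, 31 reads), which differed from each other (adjusted p = 9.24e-05). The other 9 lines had 0 to 3 reads over their 3 libraries. HL-60, KASUMI-1 and NB-4 had 0 reads, which allows up to 0.0515, 0.0495 and 0.0503 CPM.

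Of the docking protein genes, IRS2 was the more even. It was highest in NB-4 (241 ± 22.3 CPM), MONO-MAC-6 (188 ± 7.199 CPM), OCI-AML3 (148 ± 8.79 CPM) and THP-1 (109 ± 4.18 CPM), each of which differed from the next. HL-60 (64.98 ± 3.26 CPM) and OCI-AML2 (58.8 ± 1.08 CPM) were not told apart, nor were the neighbours among NOMO-1 (38.2 ± 2.995 CPM), F-36P (34.99 ± 3.53 CPM) and MOLM-13 (32.4 ± 0.591 CPM), or MV-4-11 (16.9 ± 1.71 CPM) and KASUMI-1 (15.2 ± 0.395 CPM) at the low end, for a range of 15.8-fold. IRS1 was also highest in NB-4 (31.2 ± 6.88 CPM), and then in OCI-AML3 (22.9 ± 2.54 CPM), OCI-AML2 (17.8 ± 0.693 CPM), NOMO-1 (10.9 ± 0.652 CPM) and HL-60 (5.995 ± 0.613 CPM). F-36P (1.69 ± 1.03 CPM), THP-1 (1.48 ± 0.218 CPM), KASUMI-1 (1.36 ± 0.123 CPM) and MONO-MAC-6 (1.09 ± 0.1699 CPM) followed with no neighbours told apart (adjusted p 0.373 to 0.716). MOLM-13 had 0.306 ± 0.04998 CPM and MV-4-11 only 3 reads in 3 libraries, so the 2 lines with more than 3 IGF1 reads had the least IRS1. Per kb of exon IRS2 was above IRS1 in each of the 11 lines, for example at 29.5 against 3.11 CPM per kb in NB-4.

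The binding proteins were each strong in some lines and low in others. IGFBP2 was highest in NB-4 (501 ± 55.4 CPM), F-36P (261 ± 18.8 CPM), NOMO-1 (136 ± 4.54 CPM) and KASUMI-1 (104 ± 8.92 CPM). Next were HL-60 (61.8 ± 11.3 CPM) and MV-4-11 (53.5 ± 1.99 CPM), which were not told apart (adjusted p = 0.136), and then THP-1 (20.3 ± 1.91 CPM), MONO-MAC-6 (12.99 ± 2.49 CPM) and MOLM-13 (6.03 ± 1.05 CPM). OCI-AML3 had 0.741 ± 0.168 CPM, and OCI-AML2 had 3 reads in 3 libraries.

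IGFBP4 was also highest in NB-4 (164 ± 26.8 CPM), followed by KASUMI-1 (129 ± 10.8 CPM) and OCI-AML3 (74.7 ± 5.29 CPM). MV-4-11 (57.2 ± 2.19 CPM), F-36P (49.6 ± 8.23 CPM), NOMO-1 (47.3 ± 2.34 CPM) and THP-1 (45.2 ± 3.302 CPM) were not told apart as neighbours (adjusted p 0.0786 to 0.602). Lower still were OCI-AML2 (20.3 ± 0.714 CPM), MOLM-13 (15.7 ± 1.47 CPM) and MONO-MAC-6 (11.1 ± 1.12 CPM), and HL-60 was far under them at 1.21 ± 0.238 CPM.

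IGFBP7 had another order. It was highest in THP-1 (214 ± 42.9 CPM), MONO-MAC-6 (108 ± 3.06 CPM) and OCI-AML2 (85.5 ± 2.21 CPM), and then in MOLM-13 (61.6 ± 3.82 CPM) and NOMO-1 (59.4 ± 2.54 CPM), which were not told apart (adjusted p = 0.703). OCI-AML3 (35.6 ± 2.36 CPM), KASUMI-1 (29.01 ± 1.796 CPM) and MV-4-11 (27.4 ± 1.24 CPM) came next, the last 2 not told apart (adjusted p = 0.567), and NB-4 (10.4 ± 0.163 CPM) and HL-60 (2.49 ± 0.502 CPM) were low. F-36P had 0, 0.380 and 0.0507 CPM, from 8 reads in all, which makes it the lowest line for IGFBP7 as for INSR.

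After etoposide, IGF1R fell in every line in which the treated libraries were usable, while each other member was called in at most 2 lines, all of these calls being higher except that of IRS2. The 9 members gave 90 pairs of member and line in 10 lines, of which 79 passed the filter on low counts. A pair was called at an FDR below 0.05 with a fold change above 2, by edgeR's quasi-likelihood test within the line. IGF1R was called lower in 5 lines and IRS2 in 1, so 6 of 79 pairs (7.59%) were lower, against 3.96% of all 143149 gene and line pairs tested. The 7 pairs called higher (8.86%, against 11.1%) were IGF1 and IRS1 in 2 lines each, and INSR, IGFBP4 and IGFBP7 in 1 each. Without the fold change limit, 30 pairs were lower and 22 higher, where 24.4% and 27.7% of all pairs were.

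By line, the largest number of called members was in F-36P, where 1 of 7 tested was lower and 2 were higher. In that line 6.67% of all tested genes were called lower and 24.3% higher. MOLM-13 had 2 of 8 members higher (background 8.59% higher and 3.37% lower), and THP-1 had 1 lower and 1 higher (3.46% and 6.38%). A single member was lower in KASUMI-1 (background 6.52% lower and 14.6% higher), MONO-MAC-6 (4.47% and 8.53%), NB-4 (4.82% and 13.2%) and OCI-AML3 (1.36% and 7.18%). A single member was higher in HL-60 (background 1.24% lower and 5.34% higher) and MV-4-11 (2.63% and 12.5%). NOMO-1 had no member past the fold change limit (4.43% and 8.34%).

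IGF1R fell most in OCI-AML3. It had 5.95, 4.98 and 5.500 CPM in the untreated libraries and 1.68, 1.16 and 2.01 CPM after etoposide, a 3.38-fold drop of the mean (log2 fold change -1.76 ± 0.191 (SE), adjusted p = 2.17e-04). In F-36P, a line with abundant IGF1R, the values were 111, 98.3 and 98.9 CPM in the untreated libraries and 34.5, 35.7 and 42.1 CPM after etoposide (log2 fold change -1.46 ± 0.125 (SE), adjusted p = 9.90e-06). Both drops left every treated library under every untreated one by a wide gap.

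The other 3 calls were closer to the 2-fold limit. MONO-MAC-6, where IGF1R was lowest to begin with, went from 1.79, 1.49 and 1.47 to 0.892, 0.651 and 0.612 CPM (log2 fold change -1.13 ± 0.238 (SE), adjusted p = 0.00139), which rests on 95 and 48 reads. THP-1 went from 3.93, 2.47 and 2.803 to 1.51, 1.33 and 1.39 CPM (log2 fold change -1.12 ± 0.244 (SE), adjusted p = 0.00201). Its untreated libraries were uneven, and without the highest of them the log2 fold change was -0.88 and the call was lost.

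KASUMI-1, just past the limit, went from 109, 110.5 and 114 to 61.03, 46.6 and 55.9 CPM (log2 fold change -1.02 ± 0.104 (SE), adjusted p = 2.53e-05). With its lowest treated library left out the estimate was -0.93, under the fold change limit, with an adjusted p of 6.67e-06, and it was -0.85 with library sizes alone, -0.93 with genes of at least 5 CPM and -0.98 in 1 fit of 10 lines. The FDR was passed in all 4, and it was the 2-fold limit that was missed.

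In the remaining 5 lines IGF1R fell by less than 2-fold, at an FDR below 0.05. MOLM-13 went from 11.9, 9.94 and 11.3 to 5.08, 6.83 and 5.12 CPM (log2 fold change -0.95 ± 0.144 (SE), adjusted p = 3.18e-04), and it passed the limit when untreated or etoposide replicate 2 was left out (-1.03 and -1.10). NOMO-1, the highest line, went from 192, 192 and 191 to 119, 90.5 and 104 CPM (log2 fold change -0.88 ± 0.0994 (SE), adjusted p = 1.95e-05), and passed the limit without etoposide replicate 1 (-1.02). These 2 lines lay just under the limit.

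NB-4 changed by -0.64 on the log2 scale, from 96.7 ± 5.68 to 62.2 ± 2.14 CPM (adjusted p = 1.51e-05). HL-60 changed by -0.54, from 111 ± 2.56 to 76.5 ± 2.12 CPM (adjusted p = 4.18e-04). MV-4-11 changed least, by -0.46, from 21.4 ± 2.105 to 15.5 ± 1.35 CPM (adjusted p = 2.96e-04). In each of these lines, too, the 3 treated libraries lay below the 3 untreated ones.

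**Figure D1:**
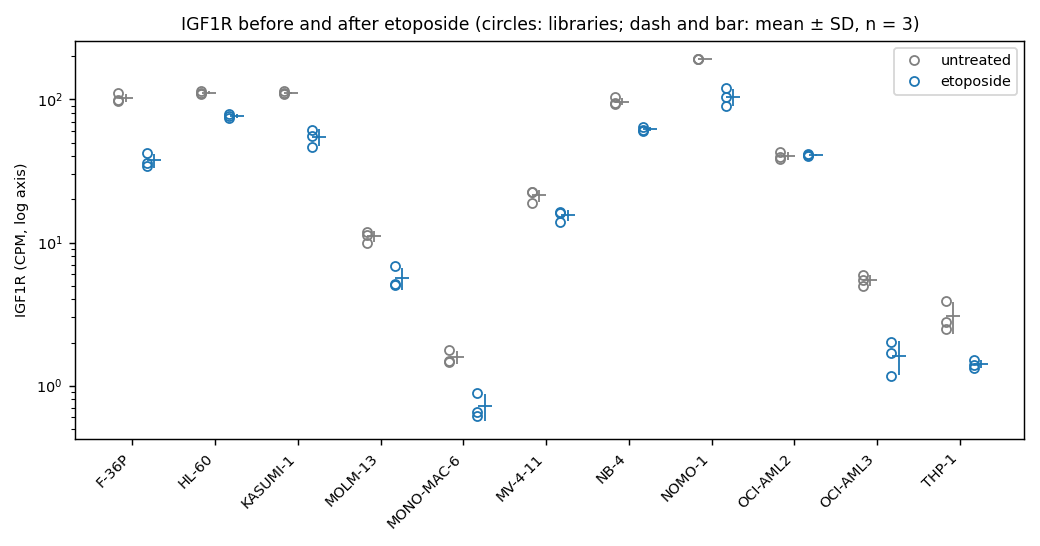
IGF1R in every library of 11 AML cell lines, in CPM normalized within each line, on a logarithmic axis. Circles are libraries (gray untreated, blue etoposide), and dash and bar are the mean ± SD of 3. The treated libraries lie under the untreated ones in 10 lines and overlap them in OCI-AML2.

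Over the 10 lines together the mean change of IGF1R was -0.95 ± 0.12 (SE, log2 CPM, 1 value per line), lower in 10 of 10 lines (limma, adjusted p = 0.000224). Of all 19974 genes, 13.6% were lower on average by this test and 21.6% higher, and 6.08% had a negative value in all 10 lines. An FDR below 0.05 with a lower level in each of 10 lines was reached by 187 of the 10588 genes tested in all of them (1.77%), and a call in 5 or more lines by 150 of 19601 genes (0.765%). The study took up IGF1R as a target for inhibitor experiments because outside knockdown data marked it as essential and these same libraries showed it repressed. Its direction here is therefore not independent evidence. No alternative setting reversed that direction in any of the 10 lines. The size of the drop differed between lines (interaction test of edgeR's quasi-likelihood fit, adjusted p = 7.81e-08), as it did for 74.5% of all genes.

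IGF1R is a long gene, and gene length moved with the calls in some lines. Genes spanning over 200 kb were called lower in 17.9% of 1184 tested in F-36P and in 16.4% of 835 in KASUMI-1, which are 2 of the lines with a call for IGF1R, against 5.54% and 6.11% of genes under 50 kb. In F-36P long genes were also called higher more often, 36.3% against 23.0%, with a median log2 fold change of 0.06, whereas in KASUMI-1 their median was -0.33. In OCI-AML3 and THP-1 the share for long genes was 1.62% and 1.53%, near or under that of short genes (1.46% and 3.90%), and in MONO-MAC-6 it was 5.03% against 4.83%. The part of length in the change of IGF1R was not tested.

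INSR did not follow IGF1R in F-36P. There it rose, from 1.64, 1.102 and 1.17 to 3.96, 4.29 and 1.83 CPM (log2 fold change 1.36 ± 0.336 (SE), adjusted p = 0.00537), with 1 treated library just above the untreated ones. Lower levels that passed the FDR but stayed under 2-fold were seen in 5 lines: MONO-MAC-6 (-0.46 on the log2 scale, 162 ± 5.48 to 118 ± 3.52 CPM), OCI-AML3 (-0.43), NOMO-1 (-0.36), NB-4 (-0.24) and MOLM-13 (-0.23), of which NB-4 missed the FDR in 9 of 14 alternatives and MOLM-13 in 4. HL-60, KASUMI-1, MV-4-11 and THP-1 did not pass, with estimates from -0.29 to 0.06. The mean over 10 lines was -0.06 ± 0.14 (SE, adjusted p = 0.767), and without F-36P it was -0.21 (adjusted p = 0.0409), so 1 line decided that call. The change differed between lines (interaction adjusted p = 3.04e-09).

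The share of IGF1R in the summed CPM per kb of IGF1R and INSR became smaller after etoposide in all 10 lines. It went from 98.4% to 89.6% in F-36P, where the median library ratio of IGF1R to INSR went from 65.7 to 6.77. KASUMI-1 went from 70.9% to 55.2%, NOMO-1 from 63.95% to 55.3% and OCI-AML3 from 4.82% to 1.98%. In NB-4 the ratio crossed 1, from 1.09 to 1.35 in the untreated libraries to 0.851 to 0.957 in the treated ones. Where a ratio stands against 1 depends on the exon lengths used.

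**Figure D2:**
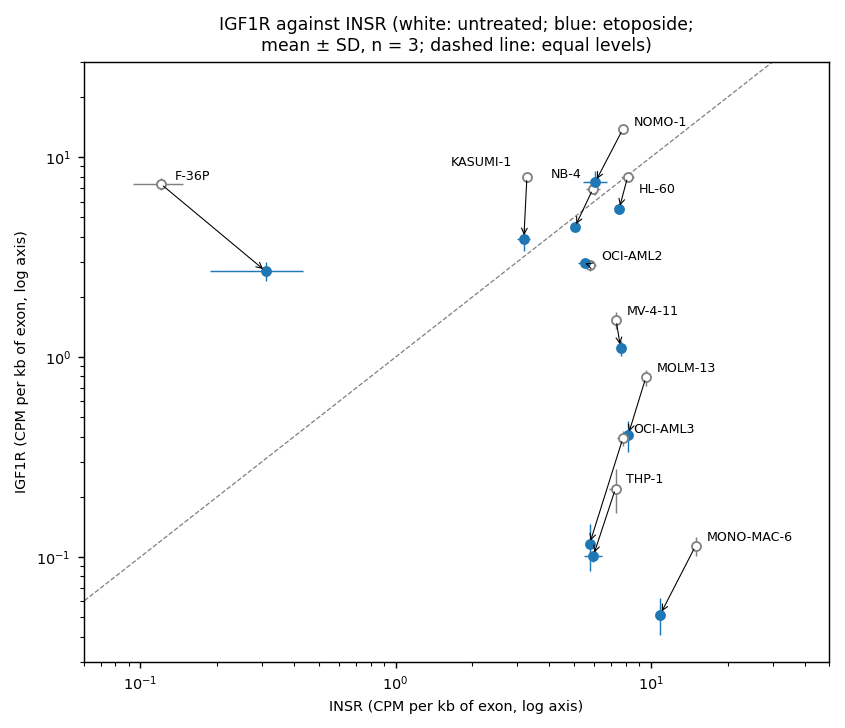
IGF1R against INSR in 11 AML cell lines, both in CPM per kb of exon on logarithmic axes. White circles are untreated cells, blue circles cells after etoposide, crossed bars the SD of 3 libraries, arrows the change of each line and the dashed line equal levels. The arrows point down in all lines except OCI-AML2, and those of F-36P and, slightly, MV-4-11 also point to higher INSR.

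IGF2R moved little, and where it passed the FDR in the main fit it rose. It passed the FDR in 5 lines, all below 2-fold: MOLM-13 (366 ± 7.41 to 536 ± 36.9 CPM, log2 fold change 0.55), OCI-AML3 (338 ± 11.4 to 478 ± 28.4 CPM, 0.50), THP-1 (464 ± 36.5 to 631 ± 20.1 CPM, 0.44), MONO-MAC-6 (664 ± 14.4 to 786 ± 4.35 CPM, 0.24) and MV-4-11 (0.20). These are the 5 of the 10 lines with the least IGF1R in untreated cells. The other 5 ranged from -0.31 in KASUMI-1 to 0.06 in F-36P without passing. In KASUMI-1 the treated libraries lay below the untreated ones (edgeR's quasi-likelihood test, adjusted p = 0.0535). There the drop passed the FDR in at least 1 of the 14 alternatives. The mean over lines, 0.19 ± 0.085 (SE), missed the threshold (adjusted p = 0.106), though it passed with library sizes alone or with genes of at least 5 CPM (0.27, adjusted p = 0.0136, and 0.22, adjusted p = 0.0481). The change differed between lines (interaction adjusted p = 7.93e-08).

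IGF1 rose in the 2 lines with more than 3 reads of it before treatment. MOLM-13 had 1.28, 2.32 and 1.66 CPM in the untreated libraries and 7.07, 8.79 and 6.76 CPM after etoposide (log2 fold change 2.10 ± 0.2103 (SE), adjusted p = 2.20e-05), and MV-4-11 had 0.682, 0.513 and 0.469 CPM in the untreated libraries and 3.18, 2.15 and 2.42 CPM after etoposide (log2 fold change 2.21 ± 0.272 (SE), adjusted p = 3.79e-07). The mean rose 4.298-fold and 4.61-fold, and the groups were well apart in both. In MV-4-11 IGF1 passed the filter on low counts only through the treated libraries. HELLPAR on the opposite strand had fewer reads after etoposide in both lines, 960 and 664 in MOLM-13 and 1086 and 639 in MV-4-11. That was not particular to these 2 lines. HELLPAR also had fewer reads in NOMO-1, THP-1, HL-60 and KASUMI-1, and more in F-36P, MONO-MAC-6, NB-4 and OCI-AML3.

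The other 8 lines did not pass that filter for IGF1. F-36P had 0, 0 and 0.111 CPM before and 0.613, 0.454 and 0.580 CPM after etoposide, that is 2 and 34 reads, a ratio of 17.3 per read on genes (exact 95% interval for counting error 4.43 to 148). KASUMI-1 had 0 and 10 reads. Per read on genes, the 10 reads are 3.27-fold the limit of 3 reads over the group, without their own counting error. The rest had 0 to 5 reads in each group. The average over 10 lines was 0.91 ± 0.27 (SE, log2 CPM with a prior count of 2, limma, adjusted p = 0.0200), but 8 of the 10 lines failed the filter, so in most lines it rests on a few reads and the prior count and no direction is read from it there. A difference between lines was not detectable at this depth (interaction adjusted p = 0.530).

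IRS1 rose in THP-1 and F-36P. THP-1 had 1.73, 1.29 and 1.56 CPM in the untreated libraries and 5.91, 7.79 and 6.76 CPM after etoposide, a 4.46-fold rise (log2 fold change 2.16 ± 0.2105 (SE), adjusted p = 5.21e-07). F-36P had 2.88, 1.45 and 0.946 CPM in the untreated libraries and 4.15, 3.23 and 5.698 CPM after etoposide (log2 fold change 1.31 ± 0.355 (SE), adjusted p = 0.00902), and there the untreated libraries were uneven, so that without untreated replicate 3 the log2 fold change was 0.89 and under the limit. IRS1 was lower at the FDR in NB-4 (32.8 ± 7.46 to 18.8 ± 1.04 CPM, -0.80) and NOMO-1 (12.2 ± 0.7396 to 6.91 ± 0.222 CPM, -0.82), 2 of the lines in which it was abundant. In HL-60, KASUMI-1, MONO-MAC-6 and OCI-AML3 it did not pass (-0.59 to 0.31), and in MOLM-13 and MV-4-11 it was too low to be tested, with 18 and 11 reads and with 3 and 7 reads. The mean over lines was 0.11 ± 0.28 (SE, limma, adjusted p = 0.776), and the lines differed (interaction test of edgeR, adjusted p = 7.39e-13). That mean includes MOLM-13 and MV-4-11, whose values rest on few reads and the prior count.

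IRS2 had the largest drop in the line where it was most abundant. NB-4 had 246, 233 and 281 CPM in the untreated libraries and 90.8, 92.5 and 92.9 CPM after etoposide, a 2.75-fold fall (log2 fold change -1.46 ± 0.0897 (SE), adjusted p = 5.50e-09), and IRS1 and IRS2 were thus both lower there. Below 2-fold, IRS2 was lower at the FDR in MOLM-13 (-0.66), MONO-MAC-6 (-0.44), NOMO-1 (-0.37) and THP-1 (-0.34) and higher in KASUMI-1 (15.2 ± 0.388 to 22.5 ± 0.595 CPM, 0.56) and F-36P (0.33), of which THP-1 and F-36P each missed the FDR in 8 of 14 alternatives. HL-60, MV-4-11 and OCI-AML3 did not pass (-0.19 to -0.09). The mean over lines was -0.25 ± 0.15 (SE, adjusted p = 0.210), and IRS2 had the smallest interaction p of the members (adjusted p = 2.83e-17).

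**Figure D3:**
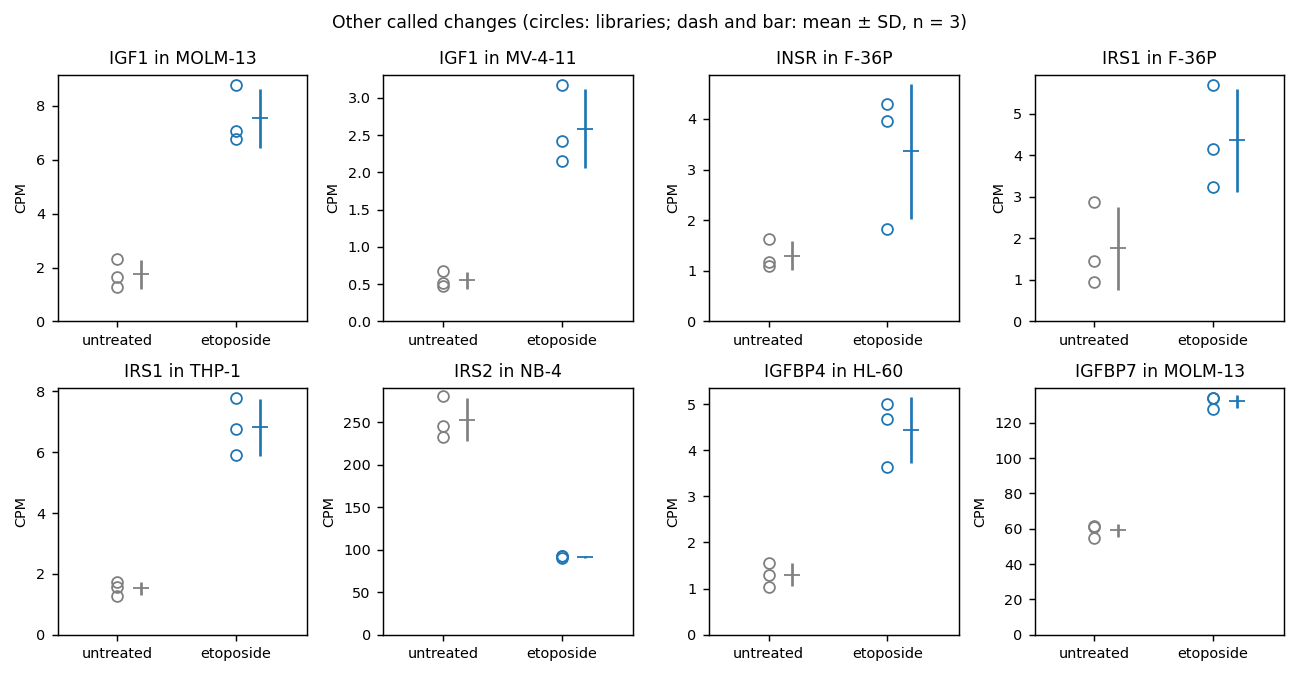
The 8 called changes of members other than IGF1R, in CPM normalized within each line, with axes from 0 that differ between panels. Circles are libraries (gray untreated, blue etoposide), and dash and bar are the mean ± SD of 3. The groups do not overlap in any panel, and INSR and IRS1 in F-36P have the smallest gaps.

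Among the binding proteins, the call in HL-60 was for IGFBP4, which had 1.04, 1.55 and 1.304 CPM in the untreated libraries and 4.997, 4.68 and 3.64 CPM after etoposide, a 3.397-fold rise (log2 fold change 1.76 ± 0.228 (SE), adjusted p = 1.03e-04) from the lowest basal level of all lines. It was also higher at the FDR, below 2-fold, in MONO-MAC-6 (0.64), MV-4-11 (0.63), NOMO-1 (0.63), F-36P (0.55) and MOLM-13 (0.53). OCI-AML3 went the other way, from 75.2 ± 4.21 to 42.1 ± 3.62 CPM (-0.84). KASUMI-1, NB-4 and THP-1 did not pass (-0.22 to -0.02), and the mean over lines was 0.38 ± 0.19 (SE, adjusted p = 0.140; interaction adjusted p = 2.09e-13).

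IGFBP7 rose in MOLM-13, with 61.6, 61.1 and 54.9 CPM in the untreated libraries and 128, 134 and 134 CPM after etoposide (log2 fold change 1.16 ± 0.07202 (SE), adjusted p = 1.71e-06). Below 2-fold it was higher in OCI-AML3 (35.9 ± 1.94 to 64.9 ± 5.46 CPM, 0.86) and MV-4-11 (0.26), and lower in MONO-MAC-6 (112 ± 3.25 to 78.02 ± 1.58 CPM, -0.53), NB-4 (-0.39) and NOMO-1 (-0.29), of which NB-4 missed the FDR in 4 of 14 alternatives and NOMO-1 in 7. THP-1, the line with the most IGFBP7, did not pass (-0.36, adjusted p = 0.1096), nor did HL-60 and KASUMI-1, and F-36P was not tested, with 8 and 34 reads. OCI-AML3 thus had less IGFBP4 and more IGFBP7 after etoposide. The mean over lines was 0.23 ± 0.21 (SE, limma, adjusted p = 0.402), and the lines differed (interaction test of edgeR, adjusted p = 4.17e-12). That mean includes F-36P, whose value rests on few reads and the prior count.

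IGFBP2 was lower at the FDR in 4 lines and higher in 1, all below 2-fold. It went from 152 ± 4.71 to 82.5 ± 7.36 CPM in NOMO-1 (-0.89), from 103 ± 8.22 to 62.3 ± 15.8 CPM in KASUMI-1 (-0.73), from 527 ± 55.98 to 326 ± 30.04 CPM in NB-4 (-0.69) and from 66.2 ± 11.99 to 49.8 ± 8.65 CPM in HL-60 (-0.41, with overlapping groups). In F-36P it was higher (0.33, 276 ± 9.603 to 346 ± 39.9 CPM), a value that missed the FDR in 8 of 14 alternatives, as the drop in HL-60 did in 6. The lines named include the 4 with the most IGFBP2 RNA, of which F-36P is the 1 with a rise. The mean over lines was -0.37 ± 0.12 (SE), lower in 8 of 10 (limma, adjusted p = 0.0259), but it did not pass without replicate 1 (-0.30, adjusted p = 0.0804) or with library sizes alone (-0.29, adjusted p = 0.0844). The lines differed (interaction adjusted p = 8.13e-06).

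In OCI-AML2 no member passed the test. IGF1R had 39.7, 42.9 and 38.1 CPM in the untreated libraries and 41.03, 41.8 and 40.2 CPM after etoposide (0.03, adjusted p = 0.998), and the estimates of the 7 members tested lay from -0.06 to 0.17. Of 13604 genes, 0% were called lower and 0% higher, and at an FDR below 0.05 alone 0% were lower and 0.0221% higher, which is 3 genes by the quasi-likelihood test, 20 by edgeR's exact test and 16 by DESeq2. At an unadjusted p under 0.05 the quasi-likelihood test had 456 genes, and IGFBP7 was the single member among them (85.6 ± 1.99 to 96.1 ± 4.12 CPM, 0.17, adjusted p = 0.998 over all genes by edgeR).

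The wider axis was followed in 47 further genes, of which 41 were tested in at least 1 of the 10 lines, in 330 pairs of gene and line. Of these pairs 15 (4.55%) were called lower and 43 (13.0%) higher, close to the 3.96% and 11.1% of all genes, and 19 of the 330 passed the filter only through treated libraries. Negative regulators were the largest group, with 120 of the 330 pairs, and held the largest number of calls, 20 higher and 8 lower. Of the calls higher, SOCS3 had 7, SOCS1 5 and TRIB3 5. In this group 7 of the 120 pairs passed the filter through treated libraries alone. Binding proteins and their partners had 11 of 19 higher and 2 lower, with 5 of the 19 let through the filter by the treated libraries alone, PI3K and AKT genes 5 of 89 higher and 1 lower, and adaptors 3 of 47 higher and 2 lower. The IGF2 mRNA binding proteins had 1 of 23 pairs called in each direction, and the FOXO factors, which AKT holds out of the nucleus, 1 of 29 lower and none higher, although FOXO3 passed the FDR as higher in 6 lines and as lower in 2. Among ligands INS was not tested in any line, and IGF2 rose in F-36P (1.19 ± 0.463 to 2.76 ± 0.811 CPM, log2 fold change 1.21), where alone it passed the filter. The values of IGF2, INSRR, FOXO3, IGFBP5 and IGFBP6 are named after they were seen, outside the rule for named genes. The receptor relative INSRR rose in F-36P (0.169 ± 0.146 to 5.69 ± 0.314 CPM) and NOMO-1 (0.626 ± 0.333 to 1.33 ± 0.266 CPM), and passed the filter on low counts through the treated libraries only.

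SOCS3, which blocks cytokine and insulin receptor signalling, was higher in 7 lines, with the largest change from a low level in HL-60 (0.0898 ± 0.0334 to 0.796 ± 0.178 CPM, 3.06) and NB-4 (0.549 ± 0.195 to 4.56 ± 1.13 CPM, 3.05). In these 2 lines it passed the filter on low counts only through the treated libraries, which is not so in MONO-MAC-6 (5.02 ± 0.433 to 20.2 ± 2.28 CPM, 2.01). Its relative SOCS1 was higher in 5, for example in NOMO-1 (1.43 ± 0.125 to 3.99 ± 0.466 CPM, 1.48), though 4 of its 9 tested lines, OCI-AML3 and THP-1 among the called ones, passed that filter only through treated libraries. TRIB3, a stress-induced pseudokinase that binds AKT, was higher in 5 lines and lower in MOLM-13. It reached 35.2 ± 1.99 to 583 ± 190.3 CPM in THP-1 (4.05) but fell in MOLM-13 from 71.4 ± 10.9 to 31.5 ± 2.36 CPM (-1.18).

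IGFBP3, the main IGF carrier of serum, was tested in 3 lines and rose in each, from 2.94 ± 0.5596 to 53.97 ± 4.56 CPM in MONO-MAC-6, from 1.52 ± 0.314 to 44.2 ± 7.300 CPM in THP-1 and from 1.21 ± 0.331 to 8.96 ± 1.61 CPM in OCI-AML3, with log2 fold changes of 2.88 to 4.85. These are the 3 lines with the least IGF1R. IGFBP5 rose in F-36P (2.74) and OCI-AML3 (13.6 ± 4.89 to 38.6 ± 13.4 CPM), and IGFBP6 in HL-60, MONO-MAC-6 and MV-4-11 (1.01 to 1.59), in both cases partly in lines where the untreated libraries were under the filter on low counts. INPP5D, the SHIP1 phosphatase of blood cells, was called lower in F-36P (-1.19), NB-4 (-1.19) and KASUMI-1 (-1.17) and was lower at the FDR in 8 lines in all. GRB10, an adaptor that restrains INSR and IGF1R, was lower at the FDR in 7 of 9 lines and called in F-36P (148 ± 15.1 to 59.3 ± 1.32 CPM, -1.32), and it was higher at the FDR in THP-1 (0.63). STC2, which inhibits cleavage of IGF binding proteins, fell in MOLM-13 (-2.67) and KASUMI-1 (-2.27) and rose in THP-1 (4.40), NOMO-1 (1.51) and F-36P (1.08). In THP-1, where STC2 had 18 untreated reads, it passed the filter on low counts only through the treated libraries.

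The genes whose untreated levels ran most closely with the receptors over the 11 lines were, for IGF1R, TBKBP1 (Pearson r = 0.925), CHCHD6 (0.923) and WDR59 (0.908). For INSR they were KCNAB2 (0.985), ORAI3 (0.959) and MALT1 (0.957), for IGF2R MAFG (0.906), ITGB2 (0.896) and PYM1 (0.890), and for IRS2 B4GAT1 (0.903) and SLC36A4 (0.869). These are among the highest of 13669 genes, over 11 points that each share 3 libraries, and they are given as a description of likeness in mean log2(CPM + 1). For INSR, 1 of the 11 points is F-36P, which lies far below the others.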

How the data were processed

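RNA of 66 libraries (11 AML cell lines, untreated or etoposide, 3 biological replicates each, grouped by the sample labels) was read from deposited gene counts, which the authors made with STAR 2.5.3a on GRCh38.p7 after FastQC 0.11.5, per the labels. Each file holds 1 column of counts from a stranded kit, and which of STAR's count columns it is was not given in the sources used here. Of 58037 identifiers, 45 copies of the pseudoautosomal regions, with 0 reads, were left out. Symbols, positions and exon lengths came from a later gene annotation than that of the counts, matched by Ensembl identifier. The precision rests on 17997404 to 24101670 reads on genes per library, and counting intervals and limits cover counting error only.

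Each line was fitted apart with edgeR 4.0.16 in R 4.3.3 (filterByExpr with a minimum count of 10 and total of 15, TMM, quasi-likelihood test, Benjamini-Hochberg adjustment), with calls at an FDR under 0.05 that also changed over 2-fold. SE is the log2 fold change over the root of F. CPM were computed over the libraries of a line, or over 33 untreated libraries for basal levels. Averages over 10 lines used limma 3.58.1 on 1 log2 CPM difference per line (prior count 2). Interaction and basal tests were quasi-likelihood F tests, and DESeq2 1.42.0 was an alternative. Alternatives also covered size factors, filters, the exact test, a joint fit, a replicate block and left-out libraries or lines. Code was tested on simulated data. Python 3.11.15, pandas 2.3.3 and matplotlib 3.10.9 made tables and plots.

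The members and the lists of further genes were chosen with earlier results of these data known. Named further genes were, from the list of 47, the 4 called in the most lines in each direction (ties by the larger absolute mean log2 fold change), and for likeness those of the 3 highest Pearson r, of which 1 is not reported here. The etoposide libraries of OCI-AML2 stayed out of pooled tests.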

Additional observations from a re-analysis of the deposited data

Results flagged for a closer look

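For 8 of the 9 members the change after etoposide differed between the 10 cell lines, by the interaction test of edgeR's quasi-likelihood fit with Benjamini-Hochberg adjustment, as it did for 74.5% of all genes. The adjusted p was 2.83e-17 for IRS2, which ranged from -1.46 in NB-4 to 0.56 in KASUMI-1 on the log2 scale. It was 7.39e-13 for IRS1, from -0.82 in NOMO-1 to 2.16 in THP-1. For IGFBP4 it was 2.09e-13, from -0.84 in OCI-AML3 to 1.76 in HL-60, and for IGFBP7 4.17e-12, from -0.53 in MONO-MAC-6 to 1.16 in MOLM-13. INSR had 3.04e-09, from -0.46 in MONO-MAC-6 to 1.36 in F-36P, and IGF2R 7.93e-08, from -0.31 in KASUMI-1 to 0.55 in MOLM-13. IGFBP2 had 8.13e-06, from -0.89 in NOMO-1 to 0.33 in F-36P. For IGF1R (7.81e-08) all 10 estimates were negative, from -1.76 in OCI-AML3 to -0.46 in MV-4-11, so its lines differed in size and not in direction.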

How the results depend on the processing

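The counts of called members (6 lower and 7 higher) became 2 and 1 with genes of at least 5 CPM and 30 and 22 with no fold change minimum. Of the calls lost with genes of at least 5 CPM, that of IGF1R in KASUMI-1 was refitted (-0.93) and missed the 2-fold limit. The others were of members under 5 CPM, which were not tested in that setting. They were IGF1R in MONO-MAC-6, OCI-AML3 and THP-1, INSR in F-36P, IRS1 in F-36P and THP-1, IGFBP4 in HL-60 and IGF1 in MOLM-13 and MV-4-11. Leaving out a replicate gave 5 to 7 lower and 7 to 9 higher, 2 to 3 members changed on average, 8 with changes that differ between lines and 9 with basal levels that differ. Replicate numbers paired the samples only in NB-4 (lowest correlation 0.152), and the replicate block gave 6 lower and 7 higher and changed no call past the 2-fold limit. Of 39 member values past the FDR but under 2-fold, 30 passed it in all alternatives and 9 missed it in 1 or more, 4 of them under the block (IGFBP2 and IRS2 in F-36P, IRS2 in THP-1 and IGFBP7 in NOMO-1). Of 1408 values recomputed 25 changed sign, none of them near the threshold (lowest adjusted p = 0.222 by edgeR or limma with Benjamini-Hochberg adjustment). With library sizes alone these were IGF2R in HL-60 (0.05) and NB-4 (0.11), IRS2 in HL-60 (0.01), IGFBP7 (0.03), IGFBP4 (0.15) and INSR (0.14) in KASUMI-1 and the average of INSR (0.02). That scaling moved the log2 fold changes by up to 0.25 in F-36P. IGFBP4 and INSR in KASUMI-1 were 0.07 and 0.05 with genes of at least 5 CPM and 0.02 and 0.01 in 1 fit of 10 lines, IGF2R in F-36P was -0.05 with no filter, and the average of IRS1 was -0.03 without F-36P. With a replicate left out, the log2 fold change of IGF2R ranged from -0.04 to 0.11 in F-36P, from -0.09 to 0.01 in HL-60 and from -0.11 to 0.10 in NOMO-1. That of IGFBP4 ranged from -0.17 to 0.06 in KASUMI-1 and from -0.24 to 0.03 in THP-1, of IGFBP7 in HL-60 from -0.29 to 0, of INSR in KASUMI-1 from -0.08 to 0 and of IGFBP2 in MV-4-11 from -0.03 to 0.10. The cause was not tested. Low counts limit IGF1, with 0 to 5 reads per group in most lines.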
